A study of Mus musculus with 4 samples.

Results

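Immediate early genes are switched on within minutes of strong synaptic activity or stimulation, without new protein synthesis, and most of their RNAs decay quickly. In the dentate gyrus, the hippocampal field of granule cells, Fos and Egr1 RNA are standard markers of recently active neurons, and their level in quiet animals is low. Calcium entry and kinase signalling act on CREB and on the serum response factor at the promoters of these genes, and several of the products are transcription factors that act on later genes. The 10 genes described here were chosen by name: the AP-1 family genes Fos, Fosb, Fosl2, Jun and Junb, the zinc finger genes Egr1 and Egr2, the related leucine zipper gene Atf3, and Ier2 and Btg2. Every probe set whose single annotated symbol was one of these names was taken, which gave 15 probe sets for 10 genes, out of 10833 probe sets for 8251 genes in the whole table. Atf3 had 3 probe sets, Fos, Junb and Egr1 had more than 1, and the other 6 genes had 1 each.

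Total RNA came from the dentate gyrus of young male C57BL/6J mice. The 4 samples form 1 group, handled controls: mice that an experimenter handled and that received no other treatment. They differ by the hour of extraction, 1, 2, 4 or 6 h, which is counted from the last shock that a separate experimental group received. Each hour is 1 array, so no hour has a replicate. The shocked mice are not analysed here, and whether a sample is 1 mouse or a pool is not given in the sources used here. Values are array intensities on a linear scale as deposited, and series of 4 values run in the order 1, 2, 4 and 6 h. The hours compare controls with each other, so a difference between them can be an hour, an animal or an array, which cannot be told apart.

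Intensity close to background is frequent among these genes, so the background was described first. A list of genes of other tissues, such as those for albumin, muscle creatine kinase, casein and protamines, had 34 genes and 44 probe sets on the array. Their 176 values had a median of 45.8, and their 90th percentile was 307.8. Control probe sets for bacterial and yeast genes, 19 in number and picked for this purpose after their values were seen, had a median of 20.95 and a highest value of 161.3. A floor of 38.3, the 20th percentile of the whole table, replaced lower intensities before the log2 step. A probe set entered the tests when its mean log2 intensity was at or above the 40th percentile, an intensity of 119.987. Of the 15 probe sets, 8 passed, 1 for each of 8 genes, and no probe set of Fosl2 or Egr2 did. All 4 values lay under 307.8 in 10 of the 15 probe sets, and all 4 lay above it in 4: those of Fosb and Jun, the brighter one of Egr1 and that of Btg2. Of the 60 values, 11 lay under the floor.

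**Figure D1:**
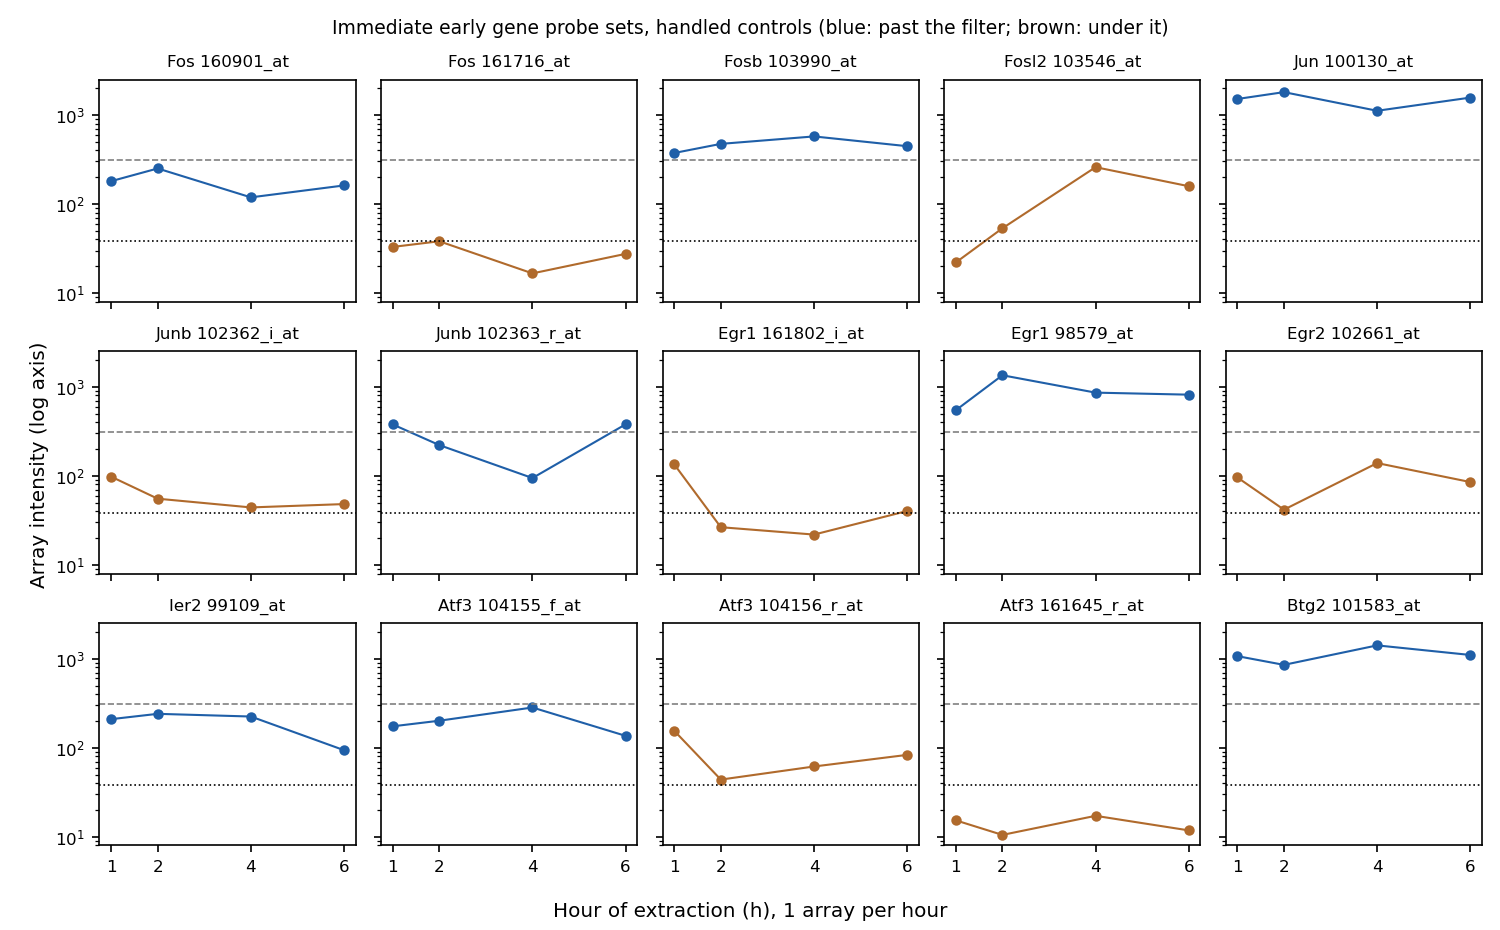
Array intensity (log axis) of all 15 probe sets against the hour of extraction in h, with 1 array per point and no error bar. The dotted line is the floor of 38.3 and the dashed line the 90th percentile of genes of other tissues, 307.8; Jun, Btg2, Fosb and 1 Egr1 probe set stay above the dashed line at every hour.

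Among markers of the labelled region, the granule cell genes Calb1, Dsp, Tdo2 and Neurod1 were bright. Their probe sets with the highest mean had mean intensities of 2632, 1171, 866 and 561. Prox1 was dim, with a mean of 192. Its values of 184.2, 153.5, 182 and 249.1 all lay under 307.8, the 90th percentile of genes of other tissues. Of 9 granule cell markers with a probe set, 8 passed the filter. The summed intensity of each cell type list varied between the hours by 1.23-fold for granule cells (7528, 8908, 7239 and 8146, highest at 2 h), 1.24-fold for interneurons, and 1.09-fold to 1.11-fold for astrocytes, oligodendrocytes and microglia. It varied by 1.25-fold to 1.43-fold for thalamus and habenula, CA field and mossy cells and vessels, 1.85-fold for blood cells and 2.68-fold for choroid plexus, which peaked at 4 h. In bulk RNA, fewer cells of a type and less RNA per cell cannot be told apart. Intensity at the 5′ control of Actb, divided by that at its 3′ control, was 0.33 at 1 h and between 0.387 and 0.403 at the other hours. The same ratio for Gapdh was 0.267, 0.158, 0.186 and 0.257, lowest at 2 h. The geometric mean of 9 hybridisation spike controls was 7497, 4343, 5769 and 6798, also lowest at 2 h.

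Elements through which activity is known to act on promoters were searched for in those of these genes, and a short stretch is shown for 6 genes in which 1 was matched. RefSeq promoter windows of build GRCm38.p6, from 250 bases before to 50 after each transcript start, were at hand for 8 of the 10 genes: Fos, Fosb, Fosl2, Jun, Junb, Egr2, Atf3 and Btg2. Egr1 and Ier2 are named only. Both strands were searched for the cAMP response element TGACGTCA, bound by CREB and its relatives. It was found in 1 of the 8 genes, Btg2, and in 2.03% of 27025 genes with a window. The variants TGACGTAA and TGACGCAA were found in Fosb and Atf3, and in 1.14% of all genes. The core TGACG, which all of these contain and which was added after the sequences were seen, was in 6 of 8 (Fos, Fosb, Junb, Egr2, Atf3 and Btg2) and in 23% of all genes. The CArG box, the core of the serum response element, was in Egr2 (1.81% of all genes). The EGR sites GCGTGGGCG and GCGGGGGCG were in Fosb and Fosl2 (3.93% of all), and TATAAA was in Fos and Junb (15.7% of all). The AP-1 site TGACTCA was in 0 of the 8 genes, against 5.95% of all genes. A match describes the letters in the window and is no evidence of binding. An element more than 250 bases before the start lies outside the window. A missing match, such as that of the CArG box in Fos, therefore does not show that the gene lacks the element.

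The following stretches run 5′ to 3′ on the strand of the gene, and capitals mark the element.
Fos, TGACG starting 66 bases before the transcript start, chr12:85473812-85473841, plus strand: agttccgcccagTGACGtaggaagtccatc
Fosb, TGACGCAA starting 60 bases before the start, chr7:19310087-19310116, minus strand: ggagttgcgggTGACGCAAgcgcgggggcg
Junb, TGACG starting 106 bases before the start, chr8:84978837-84978866, minus strand: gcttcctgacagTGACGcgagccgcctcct
Egr2, CArG box starting 72 bases before 1 of its 5 annotated starts, chr10:67537787-67537816, plus strand: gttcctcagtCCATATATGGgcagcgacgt
Atf3, TGACGTAA read on the other strand, starting 10 bases before the start, chr1:191183334-191183363, minus strand: cctggaagctattaatagcaTTACGTCAgc
Btg2, TGACGTCA starting 166 bases before the start, chr1:134079303-134079332, minus strand: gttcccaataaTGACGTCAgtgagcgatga

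Among the Fos proteins, which pair with Jun proteins to form AP-1, Fos was highest at 2 h. Its brighter probe set (160901_at) read 180.2, 250.4, 118.6 and 161.4, a 2.11-fold span from 2 h down to 4 h. All of these values lie under the 90th percentile of genes of other tissues, though 36 of the 44 probe sets of that list had a lower mean. At 2 h Fos was 1.66-fold the mean of the other 3 hours (a mean of log2 values), and the 4 h value was at 0.612 of the mean of the rest. The other Fos probe set (161716_at) read 32.9, 38.1, 16.6 and 27.5, all under the floor, so it gives no usable course.

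Fosb encodes a Fos relative known for a shortened, long-lived form that builds up with repeated stimulation, and the table gives no value per form. It read 373.7, 473, 573.5 and 445.5, with a mean of 466 ± 82.8 (SD, n = 4), over a 1.53-fold span. Fosb was highest at 4 h and lowest at 1 h as deposited, and highest at 2 h when the arrays were scaled to the spike controls. Fosl2, which encodes Fra-2, a member that is usually induced later than Fos, read 22, 53.3, 258.9 and 158.2. Its 1 h value lies under the floor and it did not pass the filter. The span was at least 6.76-fold, from 1 h to 4 h, and all 4 values lie under the 90th percentile of genes of other tissues.

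Of the Jun partners, Jun was bright and Junb was dim and uneven. Jun read 1510.4, 1803.4, 1113.3 and 1565.8, with a mean of 1498 ± 286 (SD, n = 4). It was highest at 2 h and lowest at 4 h, as Fos was, over a 1.62-fold span. Junb, which can oppose Jun at some targets, had a probe set past the filter (102363_r_at) at 378.6, 221.7, 94.5 and 379.2. The values at 1 h and 6 h were nearly equal, and the 4 h value was at 0.298 of the mean of the other hours, in the widest span of the 8 tested probe sets (4.01-fold). The other Junb probe set (102362_i_at) read 98, 55.4, 44.2 and 48.2 and did not pass the filter. It was also lowest at 4 h, but did not return at 6 h. By the maker's naming, the endings _i, _r and _f mark probe sets for which fewer or less specific probes could be designed.

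Egr1, the zinc finger factor also called Zif268, gave the bright probe set with the widest span. It read 545.7, 1348.9, 860.6 and 816.6 (98579_at), with a mean of 893 ± 334 (SD, n = 4). The 2 h value exceeded the other hours, taken as their mean, by 1.86-fold, the 1 h value was at 0.556 of the mean of the rest, and the values at 4 h and 6 h lay close together. The 2.47-fold span is wider than in all but 31 of the 2167 probe sets in the same band of mean intensity (the 80th to 100th percentile). At 2 h, 13 of those 2167 stood further above the other hours. The mean of this Egr1 probe set exceeds that of 82.7% of all probe sets, near the lower edge of the band. Most probe sets it is ranked against are thus brighter, and spans narrow with intensity. The second Egr1 probe set (161802_i_at) read 134.7, 26.5, 21.9 and 40.3, with the 2 h and 4 h values under the floor. It was highest at 1 h, the hour at which the bright one was lowest, and it did not pass the filter. Egr2, a related factor also called Krox20, read 96, 41.7, 139.2 and 85.2, and did not pass the filter. It was lowest at 2 h, where Egr1 was highest, but every value lay under the 90th percentile of genes of other tissues.

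Atf3, a stress-induced leucine zipper factor that mostly represses, was near background in all 3 probe sets. The one past the filter (104155_f_at) read 174.1, 201.2, 283.3 and 136.1, highest at 4 h and lowest at 6 h over 2.08-fold. A second (104156_r_at) read 155.2, 43.9, 61.6 and 83.2, and another (161645_r_at) read 15.3, 10.5, 17.2 and 11.8, all under the floor. The brighter pair did not share a course: 104156_r_at was highest at 1 h and lowest at 2 h. Ier2, a rapidly induced gene of growth factor and activity signalling, read 209.5, 240.5, 224.3 and 93.9. Its first 3 values lie close together, and the 6 h value was at 0.418 of the mean of the others. Btg2, an antiproliferative factor that binds the deadenylation machinery, was bright at 1069.4, 853.2, 1412.3 and 1102.1, with a mean of 1109 ± 230 (SD, n = 4). It was lowest at 2 h and highest at 4 h, opposite to Jun, over 1.66-fold.

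None of the 8 tested probe sets passed the test for a linear trend on the hour (limma, Benjamini-Hochberg over 6500 probe sets), and none of the 6500 did (0%). The adjusted p of each of the 8 was 0.999955. An unadjusted p under 0.05 was reached by 0 of the 8 and by 136 of all 6500. The steepest slope was that of Ier2, −0.23 ± 0.14 log2 per h (SE, n = 4, unadjusted p = 0.118 from limma). Its SE and p draw on the scatter of other probe sets as well as on its own 4 values. Without the 6 h array the slope of Ier2 was 0.021. Slopes were positive in 3 of 8 members (Fosb, Egr1 and Btg2) and in 49.9% of all probe sets, and their median was −0.04 against −9.88e-05 for all. A line cannot follow a peak at 2 h, so the values themselves carry the description. A missed threshold with 4 arrays does not show that the levels were equal.

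**Figure D2:**
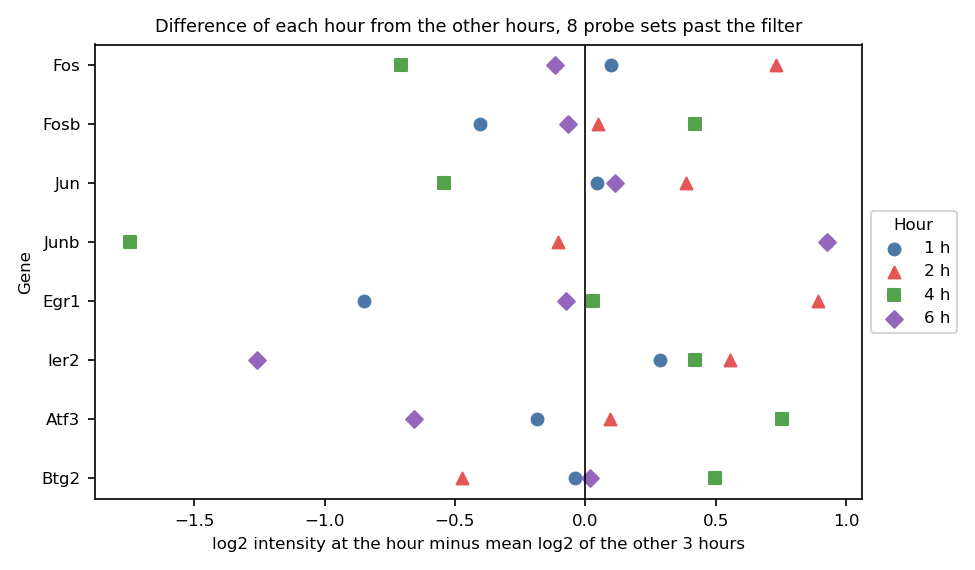
Difference in log2 intensity between each hour and the mean of the other 3 hours for the 8 probe sets past the filter, 1 array per point, with no error bar. Fos, Jun, Egr1 and Ier2 have their highest point at 2 h and Fos, Jun and Junb their lowest at 4 h; for Junb the 1 h point (0.92) lies under the 6 h point (0.93).

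The genes did not share a single course. The 2 h array held the highest value of 4 of the 8 probe sets (Fos, Jun, Egr1 and Ier2), where it held the highest for 22.4% of all 6500. The 4 h array held the highest for Fosb, Atf3 and Btg2 and the lowest for Fos, Jun and Junb. For all probe sets the shares at 4 h were 32.9% highest and 28.4% lowest, above those of the other hours. The 1 h array held the highest value of 0 of the 8 (23% of all) and the lowest of Fosb and Egr1. That 0 is narrow: Junb read 378.6 at 1 h and 379.2 at 6 h. Under the filter, 102362_i_at (Junb), 161802_i_at (Egr1) and 104156_r_at (Atf3) were highest at 1 h. Those of Fos, Fosl2 and Egr2 and the dimmest of Atf3 were not. The median difference of the 8 from the other hours was 0.24 log2 at 2 h, with 6 of 8 above 0. For all probe sets the median at 2 h was 0.01, with 50.7% above 0. The summed granule cell markers were highest on the same 2 h array, and their part in the members' values was not tested. At 4 h the median difference of the 8 was close to that at 2 h, at 0.22 with 5 of 8 above 0. For all probe sets it was 0.04 at 4 h, with 53.8% above 0. The median difference of the 8 was 0.0022 at 1 h and −0.07 at 6 h. These are counts over 1 array per hour, and the 8 probe sets of 1 array share its RNA, so they are not replicates of the hour.

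The scaling of the arrays bears on the 2 h value. Fos, Jun, Egr1 and Ier2 were highest at 2 h with the values as deposited, with array medians made equal, with quantile normalisation and with the spike controls made equal, the last added after seeing the data. That last scaling raises the 2 h array more than any other, so genes already highest at 2 h had to stay so, and it is no further support. The excess of Egr1 at 2 h was 0.89 log2 as deposited, 0.94 with array medians, 0.88 with quantiles and 1.51 with the spike controls. Btg2 was lowest at 2 h under the first 3 scalings (−0.47, −0.43 and −0.48) but stood at 0.14 with the spike controls, and Junb went from −0.11 to 0.51. With the spike controls the highest hour of Fosb also moved from 4 h to 2 h, where it stood at 651 against 594 at 4 h. Scaling to the spike controls moved the median of all probe sets at 2 h to 0.62 from 0.01, at 1 h to −0.43 and at 6 h to −0.24. Array medians moved the median of all at 4 h to −0.15 from 0.04. The Gapdh 5′ to 3′ ratio was also lowest at 2 h, and its part in these values was not tested.

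**Figure D3:**
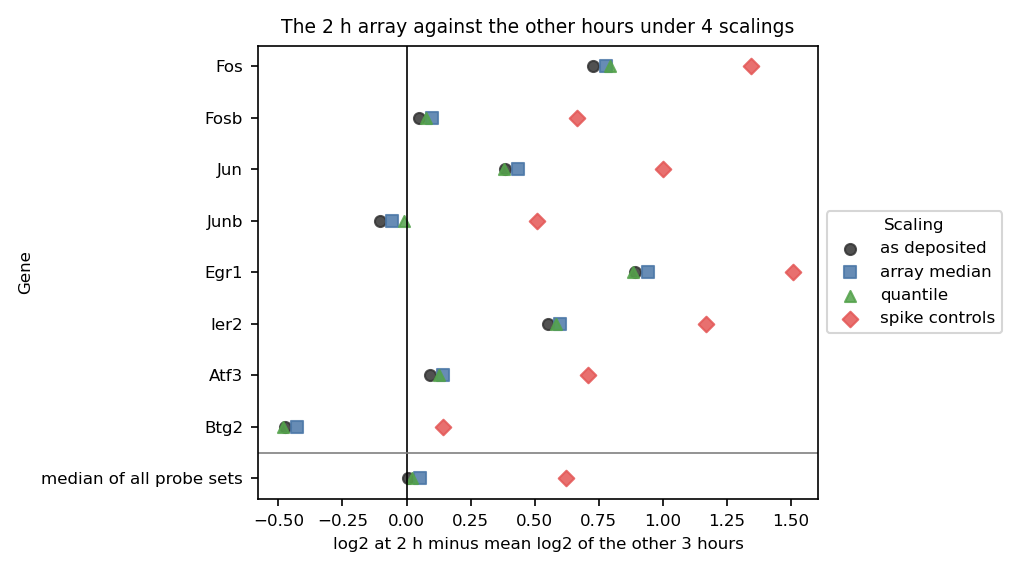
Difference in log2 intensity between the 2 h array and the mean of the other 3 hours, for the 8 probe sets past the filter and for the median of all 6500 probe sets, under 4 scalings. With the spike controls every point moves right by about the same amount, which 1 factor per array fixes, including the median of all probe sets at 0.62 and Egr1 at 1.51.

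A span over 2-fold between the highest and the lowest hour was found in 5 of the 8 probe sets (Fos, Junb, Egr1, Ier2 and Atf3) and in 21.6% of all 6500. The median span was 2.1-fold in the 8 and 1.53-fold in all. Spans narrow with intensity, however: over 2-fold was reached by 46.7% of probe sets between the 40th and 60th percentile of mean intensity, 13.6% between the 60th and 80th, and 4.52% above the 80th. Fos, Junb, Ier2 and Atf3 all lie in the dimmest of these bands, where 4 of 4 members stand beside 46.7%, and their spans were exceeded by 41.2%, 10.8%, 28% and 42.8% of the probe sets there. Fosb lies in the middle band, with 46.4% wider. Jun, Btg2 and Egr1 lie in the brightest, Egr1 near its lower edge, with 17.5%, 14.6% and 1.43% wider. Of these 3 bright probe sets, that of Egr1 was the 1 with a span over 2-fold. The count of 5 rests on single arrays, and leaving an array out can only narrow a span. It was 4 without the 1 h array, 3 without 2 h, 2 without 4 h and 3 without 6 h. The share of all probe sets, 21.6% with every array, was then 15.9%, 15.9%, 12.1% and 16.3%. With a constant of 50 added in place of the floor the member count was 3, where 14.7% of all probe sets spanned over 2-fold. With spike control scaling it was 7 of 8, where 48% of all probe sets spanned over 2-fold, and the span of Egr1 was 4.27-fold.

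**Figure D4:**
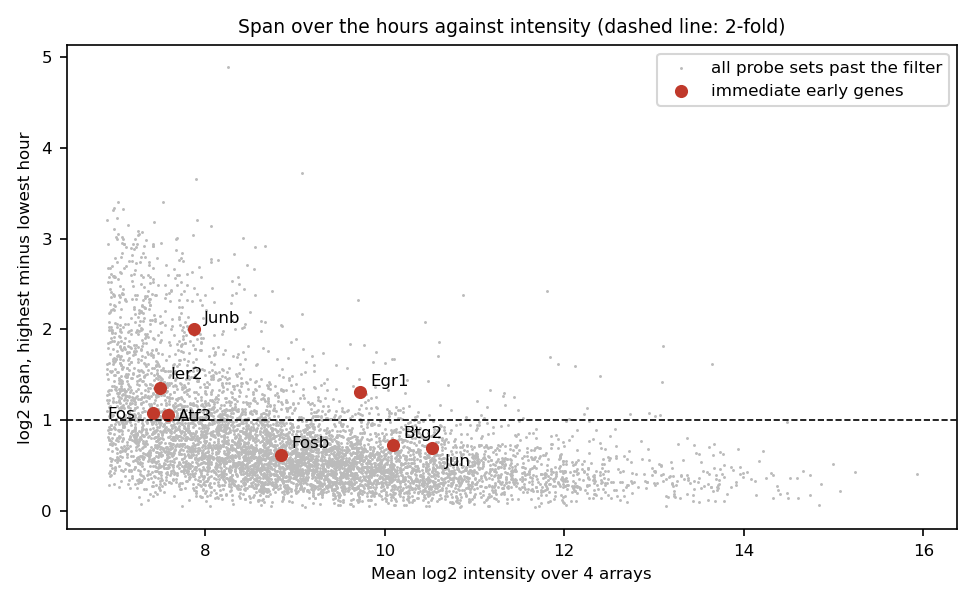
Span over the hours (highest minus lowest log2 intensity) against mean log2 intensity for the 6500 probe sets past the filter (grey) and the 8 immediate early gene probe sets (red); the dashed line is 2-fold. Dim probe sets spread widely. Egr1 stands above the line at a mean log2 of 9.73, near the lower edge of the band above the 80th percentile, where 4.52% do.

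Leaving out the highest or lowest of 4 values can only narrow a span, so the following values give the size of the narrowing alone. Without the 2 h array the log2 span of Egr1 was 0.66 (1.31 with all arrays) and that of Fos 0.6 (1.08). That of Jun was then 0.49 (0.7), of Btg2 0.4 (0.73) and of Ier2 1.26 (1.36). Without the 4 h array that of Junb was 0.77 (2), of Atf3 0.56 (1.06) and of Fos 0.63. That of Jun was then 0.26, of Btg2 0.37 and of Fosb 0.34 (0.62). Without the 6 h array that of Ier2 was 0.2 (1.36) and of Atf3 0.7. Without the 1 h array Egr1 came to 0.72 and Fosb to 0.36.

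Other genes known to respond to activity were read from a list of 49, of which 37 had a probe set and 28 passed the filter with 31 probe sets, of which 0 were called in either direction and 18 had a positive slope. The 2 h array held the highest value in 4 of the 31, the median difference at 2 h was −0.01 log2, and 10 of 31 (32.3%) spanned over 2-fold. The widest was the ADP-ribosyltransferase gene Tiparp, at 157.9, 192.2, 30.2 and 341, at least 8.9-fold with its 4 h value under the floor. Dusp2, a phosphatase of MAP kinases, read 550.7, 80.9, 376.8 and 381.9, lowest at 2 h. Nfil3, a leucine zipper repressor, read 253.1, 215.8, 266.1 and 52.9, lowest at 6 h as Ier2 was. All of these values, like those of Ier2, lie under 307.8, the 90th percentile of genes of other tissues. A second Nfil3 probe set, under the filter, read 145.5, 83, 59.6 and 11.9, also lowest at 6 h.

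Kinases and factors upstream of these genes were read from a list of 27, of which 19 had a probe set and 13 passed the filter with 16 probe sets. None was called (0 up and 0 down), 5 of 16 slopes were positive, and 2 of 16 (12.5%) spanned over 2-fold, against 21.6% of all. The 2 h array held the highest value in 5 of the 16, and their median difference at 2 h was 0.21 log2. Elk1, a partner of the serum response factor, read 190.2, 267.4, 323.7 and 125.8, and Mef2a, an activity-regulated factor of neurons, 2353.7, 2135.9, 1424.6 and 2809.4. For Mef2c the widest of 4 probe sets past the filter read 147.4, 137, 243.4 and 101.9, highest at 4 h with every value under 307.8. The brightest Mef2c probe set read 424.8, 682.6, 590.6 and 399.7, and the next brightest 310.2, 447.8, 418.9 and 229.4. Both were highest at 2 h, so Mef2c enters the count of 5 more than once. The dimmest read 154.4, 150.8, 110 and 115.5, highest at 1 h.

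Leucine zipper partners and relatives of the EGR and BTG proteins had 17 of 22 genes on the array and 15 probe sets past the filter for 14 genes. Again 0 were called, 7 slopes were positive, and 4 of 15 (26.7%) spanned over 2-fold. The 2 h array held the highest value in 1 of the 15, and their median difference at 2 h was −0.16 log2. Ddit3, the stress factor CHOP, read 308, 313.8, 60.3 and 162.6, lowest at 4 h. Nfe2l1 had a dim probe set at 69, 121.7, 356.6 and 240.6 and a bright one at 2084.5, 1929.8, 2602.6 and 1706, which share a high 4 h value but not the low 1 h value. Atf6, a sensor of unfolded proteins, read 528, 479.6, 474.5 and 217.8. Among genes of other tissues, 12 probe sets passed the filter, 0 were called, and 6 of 12 (50%) spanned over 2-fold.

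Probe sets with a course like those of the widest members, by Euclidean distance between log2 deviations over the 4 arrays, were found among the 6499 others. Nearest to Junb were Slc5a6 at a distance of 0.134 (359.5, 205.1, 79.4 and 350.4), Syne4 at 0.218 and Spcs1 at 0.25. Nearest to Ier2 were Ilvbl at 0.0742 (147.6, 174.4, 160.5 and 70.9), Zfp277 at 0.127 and Ncam2 at 0.145. These distances rest on 4 arrays and describe the shape of the values alone.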

How the data were processed

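The values deposited by the authors are linear array intensities, 1 for each of 12488 probe sets in each sample. Their scanner, software and scaling are not stated in the labels. The mean after trimming 2% at each end was 500.3 on each array, from which a common scaling was inferred. Left out were 66 array controls, 1193 probe sets without a symbol and 396 with several symbols. Symbols came from the platform annotation, and all 10 genes matched a RefSeq gene by identifier. Lower values were raised to the floor (20th percentile, 38.3) before the log2 step. The 6500 probe sets at or above the 40th percentile of mean log2 were fitted as a line on the hour (limma 3.58.1, lmFit and eBayes with an intensity trend, under R 4.3.3), with 2 residual degrees of freedom, called at an adjusted p under 0.05. The script was tested on simulated data. Whether samples came from separate animals is not stated, so p-values measure the scatter between these arrays. That scatter is only partly a probe set's own. To the 2 residual degrees of freedom eBayes added a median of 9.78 prior ones, estimated over all tested probe sets. The number of arrays limits the precision.

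All probe sets of the 10 genes are named, with up to 3 genes of the widest span per other list and the 3 nearest probe sets of the 2 widest members; further probe sets of those genes and the position of single list members were added after their values were seen. The genes and lists were chosen with earlier results of these data known.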

Additional observations from a re-analysis of the deposited data

Results flagged for a closer look

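Ier2 was singled out because its 6 h value (93.9) lies far from the other 3 (209.5, 240.5 and 224.3). On the log2 scale the gap between the 6 h value and the nearest other one was 0.853 of the whole range, above Dixon's 95% critical value for 4 samples. Chance gives such a gap in about 1 in 20 groups of samples, and 6% of all 6500 probe sets past the filter (390) had one. It was the 1 such probe set among the 8. All 4 Ier2 values lie under the 90th percentile of genes of other tissues.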

How the results depend on the processing

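No paired analysis was possible because the 4 samples form 1 group with 1 array per hour. The member count past the trend test was 0 under all 13 alternatives. Over all probe sets that count was 0 to 18 with 1 array left out (18 without the 1 h array, 3 without 2 h, 2 without 6 h), from lines with 1 residual degree of freedom, and 1 with spike control scaling; it was 0 in the other 8. The member count over 2-fold was 3 with a constant of 50 added, 10 of 15 with no filter, 1 of 4 with a filter at the 60th percentile, which drops Fos, Junb, Ier2 and Atf3, 7 of 8 with spike control scaling, and 2 to 4 with 1 array left out. The count for all probe sets was 3699 of 10833 (34.1%) with no filter and 393 of 4333 (9.07%) with the stricter filter. It was 741 of 4951 (15%) with 1 probe set per gene and 954 of 6500 (14.7%) with the constant of 50. With 1 array left out it was 787 to 1060 of 6500 (12.1% to 16.3%), and with spike control scaling 3123 (48%). Of 100 slopes under an alternative, 94 kept their direction and stayed uncalled and 6 changed sign, all with 1 array left out. These slopes ran from −0.14 to 0.24 log2 per h for Atf3, −0.18 to 0.14 for Egr1, −0.022 to 0.196 for Fosb, −0.34 to 0.021 for Ier2 and −0.66 to 0.19 for Junb; the cause was not tested. Intensities near the floor limit Fosl2, Egr2 and the second probe sets of Fos, Junb, Egr1 and Atf3.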
